A study of Homo sapiens with 22 samples.

Results

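ID1, ID2, ID3, ID4, SMAD6, SMAD7, BAMBI and SKIL were followed through RNA sequencing of HEK293 cells that expressed dead-Cas9 activators. The 8 genes are the ID family and 4 feedback regulators of BMP and TGF-beta signalling, chosen by name with earlier results of these data known. Each matched 1 of 48162 rows of the count table. All 8 also passed the filter on low counts, which kept 16694 genes. ID1, ID2 and ID3 were higher than in WT cells with every fusion, and SMAD6 and SMAD7 were lowest with VPRP and the HBB guide.

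As background, BMP and TGF-beta ligands bind paired type I and type II receptor kinases, and the type I receptor phosphorylates receptor SMADs that enter the nucleus with SMAD4. SMAD complexes recruit co-activators, among them the acetyltransferase p300 (encoded by EP300), to their target genes. ID1, ID2 and ID3 are classic direct BMP targets, and SMAD6, SMAD7, BAMBI and SKIL are induced by the pathway and dampen it.

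HEK293 is a line derived from human embryonic kidney. All cells were given doxycycline (dox) over 48 hours. Each of the 6 RNA groups had 2 libraries of sorted cells, described by the series as biological replicates. The WT group, labelled as having no treatment, carried an sgRNA and no fusion and was sorted for BFP; its guide is not named in the sources used here. The VPR, p300 and p300 D1399Y groups carried dCas9-VPR, dCas9-p300 or dCas9-p300 D1399Y with sgHBB, a guide to the beta-globin gene HBB. The VPRP group carried dCas9-VPRP with sgHBB, and the VPRP NonTarget group carried dCas9-VPRP with a non-targeting guide. The cells of these 5 groups were sorted for GFP and BFP together. dCas9 binds DNA at its guide's site without cutting it. VPR holds the activation domains VP64, p65 and Rta, D1399Y is a substitution that impairs p300's acetyltransferase activity, and VPRP joins VPR to p300. Whether each line was 1 clone or a pool is not given in the sources used here. H3K27ac ChIP samples of the series were not analysed here.

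Total counts ran from 14894558 to 17479523 per library. EP300 reads, in which those of the native gene and of the fusions cannot be told apart, averaged 107 CPM (each gene's share of a library's reads, scaled by TMM factors) in WT, 98.7 in VPR, 195 in p300 D1399Y, 375 in VPRP sgHBB, 1124 in p300 and 1172 in VPRP NonTarget. The amount of p300 fusion RNA therefore differed between groups along with the kind of fusion and its guide. All 7 HEK293 markers that matched a gene symbol of the count table were detected in every library. LHX1, also planned as a HEK293 marker, and PECAM1, planned as a marker of other cells, matched none and were not checked. Markers of other cell types summed to between 16.9 and 67.8 CPM, lowest in WT and highest in VPRP sgHBB. Of these 15 markers, 12 or 13 lay under 1 CPM in each group, and COL1A1, which is also a SMAD target, made up most of the sum; the part of other cells in the results was not tested. The groups also fell apart in a way their labels do not give: MAGEA10 was at 9.46 CPM in WT, 25.9 in VPR and 32.0 in VPRP NonTarget, and at 0, 0.0692 and 0.213 CPM in p300, p300 D1399Y and VPRP sgHBB, while TWIST2 was at 4.01, 4.32 and 3.52 CPM in those last groups and near 0 in the others. Both genes were picked after their values had been seen, and the part of that split in the results was not tested.

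The promoters of the genes whose levels carry the main pattern are shown so that their sequences can be read beside the values: ID1, ID2 and ID3, higher in all fusion groups, and SMAD6 and SMAD7, lowest in VPRP sgHBB. Each run gives the 250 bases before the annotated start, 5′ to 3′ on the gene's strand, from RefSeq on GRCh38.p14; for the counts, the submitters' processing notes name hg19, and no coordinates were carried between the builds. ID1 lies at chr20:31605039-31605288 (plus strand), ID2 at chr2:8681806-8682055 (plus strand), ID3 at chr1:23559502-23559751 (minus strand), SMAD6 at chr15:66701986-66702235 (plus strand) and the first of 3 listed SMAD7 promoters at chr18:48950966-48951215 (minus strand). Capitals mark the letters of motifs bound by SMADs: CAGAC on either strand (on the other it reads GTCTG), the GC-rich motif GGCGCC on either strand, and the palindrome GTCTAGAC.
ID1: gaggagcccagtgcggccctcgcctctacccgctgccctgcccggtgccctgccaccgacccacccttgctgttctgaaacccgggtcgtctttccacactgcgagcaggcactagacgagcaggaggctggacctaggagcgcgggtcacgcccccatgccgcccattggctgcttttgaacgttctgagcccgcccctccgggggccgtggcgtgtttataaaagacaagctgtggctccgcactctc
ID2: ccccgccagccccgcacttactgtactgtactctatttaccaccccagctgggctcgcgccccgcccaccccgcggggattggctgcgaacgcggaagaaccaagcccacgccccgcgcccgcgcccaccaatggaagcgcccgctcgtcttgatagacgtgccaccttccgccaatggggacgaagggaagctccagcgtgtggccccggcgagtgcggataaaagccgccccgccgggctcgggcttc
ID3: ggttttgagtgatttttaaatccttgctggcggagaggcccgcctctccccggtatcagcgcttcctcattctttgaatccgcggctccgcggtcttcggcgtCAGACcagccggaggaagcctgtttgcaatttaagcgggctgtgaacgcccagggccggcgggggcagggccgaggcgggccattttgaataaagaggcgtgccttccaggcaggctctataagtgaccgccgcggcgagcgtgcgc
SMAD6: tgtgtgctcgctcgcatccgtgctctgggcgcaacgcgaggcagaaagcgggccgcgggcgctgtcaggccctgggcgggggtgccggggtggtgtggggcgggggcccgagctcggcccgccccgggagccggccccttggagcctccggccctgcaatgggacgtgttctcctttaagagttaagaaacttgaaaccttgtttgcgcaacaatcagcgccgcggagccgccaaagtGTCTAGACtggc
SMAD7: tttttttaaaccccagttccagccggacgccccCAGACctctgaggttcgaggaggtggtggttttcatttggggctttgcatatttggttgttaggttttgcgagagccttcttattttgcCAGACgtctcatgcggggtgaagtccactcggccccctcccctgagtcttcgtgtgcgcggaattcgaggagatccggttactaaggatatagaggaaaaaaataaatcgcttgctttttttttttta
CAGAC, searched on both strands, was found in 6 of the 10 promoters listed for the 8 genes (60% against 38% of 35116 RefSeq promoters of this length), and GGCGCC in 2 (20% against 16.4%). The ID1 and ID2 windows held neither of these motifs, and shorter forms and sequence farther upstream were not searched. GTCTAGAC, looked for after the sequences had been seen, stood in the SMAD6 window 12 bases before the start and in 0.182% of all promoters. The longer form CAGACA was in 0 of the 10 promoters and in 13.6% of all. TATAAA was found in the ID1 and ID4 windows and in the second SMAD7 window (10.7% of all promoters), and the GC box GGGCGG in 6 of 10 (42.6%). The E-box CANNTG was in 4 of 10 (40% against 61.8% of all promoters). TGACG was in 2 of 10 (20% against 21.2%). Matches are of letters only; binding was not measured.

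ID1, ID2 and ID3 encode small helix-loop-helix proteins without a DNA-binding region, which hold E proteins off their E-box sites. ID1 was measured at 3.23 and 3.95 CPM in the WT libraries, 8.61 and 7.32 in VPR, 13.3 and 10.8 in p300, 5.55 and 5.74 in p300 D1399Y, 9.72 and 8.89 in VPRP sgHBB, and 22.8 and 20.2 in VPRP NonTarget. No 2 groups overlapped, and the order from lowest to highest was WT, p300 D1399Y, VPR, VPRP sgHBB, p300 and VPRP NonTarget. ID1 was 5.96-fold higher than in WT in VPRP NonTarget (log2 fold change 2.58, SE 0.18, edgeR adjusted p = 1.24e-14). The p300 group was 3.35-fold higher (1.74, SE 0.18, edgeR adjusted p = 1.61e-09), VPRP sgHBB 2.58-fold and VPR 2.22-fold. In p300 D1399Y the difference was 1.57-fold (0.65, SE 0.21, edgeR adjusted p = 0.0146). The WT level rested on 48 and 61 reads, and without WT replicate 1, or without either p300 D1399Y library, that last call was lost (edgeR adjusted p = 0.141, 0.0529 and 0.0645). In bulk RNA, a change in the number of cells that express a gene and a change in its RNA per cell cannot be told apart.

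ID2, which also binds the retinoblastoma protein, was measured at 31.7 and 33.2 CPM in WT, 37.2 and 42.2 in VPR, 83.6 and 85.8 in p300, 60.1 and 61.3 in p300 D1399Y, 48.3 and 52.0 in VPRP sgHBB, and 40.6 and 41.3 in VPRP NonTarget. VPR and VPRP NonTarget overlapped; all other neighbours in the order were apart. ID2 was 2.61-fold higher in p300 than in WT (log2 fold change 1.38, SE 0.09, edgeR adjusted p = 6.86e-15), 1.87-fold in p300 D1399Y and 1.54-fold in VPRP sgHBB. The differences were smaller in VPRP NonTarget, at 1.26-fold (edgeR adjusted p = 0.00186), and in VPR, at 1.22-fold (edgeR adjusted p = 0.0185). The VPR call was lost without the count filter (0.0534), in a fit of the compared groups alone (0.075), and without WT replicate 1 (0.127), WT replicate 2 (0.0551) or VPR replicate 2 (0.212), all edgeR adjusted p-values.

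ID3, a close relative of ID1, was measured at 15.2 and 14.4 CPM in WT, 36.7 and 40.9 in VPR, 42.8 and 43.1 in p300, 34.6 and 36.3 in p300 D1399Y, 35.7 and 31.4 in VPRP sgHBB, and 50.4 and 53.2 in VPRP NonTarget. The WT libraries lay apart below all others, VPRP sgHBB overlapped p300 D1399Y, and VPRP NonTarget lay apart above the rest. ID3 was between 2.26-fold (VPRP sgHBB) and 3.50-fold (VPRP NonTarget) higher than in WT, with log2 fold changes of 1.18 (SE 0.11) and 1.81 (SE 0.10). RefSeq lists a long noncoding RNA, LOC124903876, over ID3. Its reads could not be told apart from those of ID3 here, since the strand setting of the counting is not given in the sources used here.

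ID4, which is known to act partly against the other ID proteins, was measured at 65.3 and 60.7 CPM in WT, 68.9 and 65.3 in VPR, 89.1 and 85.7 in p300, 65.7 and 59.8 in p300 D1399Y, 61.0 and 63.9 in VPRP sgHBB, and 107 and 91.4 in VPRP NonTarget. WT, p300 D1399Y and VPRP sgHBB overlapped one another, and p300 and VPRP NonTarget lay above all other groups. ID4 rose 1.39-fold in p300 (log2 fold change 0.47, SE 0.08, edgeR adjusted p = 1.9e-05) and 1.58-fold in VPRP NonTarget (0.66, SE 0.08, edgeR adjusted p = 2.85e-08). In VPR the log2 difference was 0.09 (SE 0.09), in p300 D1399Y -0.0034 (SE 0.09) and in VPRP sgHBB -0.01 (SE 0.09), none past the threshold.

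SMAD6 and SMAD7 encode the inhibitory SMADs: SMAD6 acts mainly on BMP receptors, and SMAD7 on both BMP and TGF-beta receptors. SMAD6 was measured at 19.4 and 20.4 CPM in WT, 16.8 and 16.9 in VPR, 16.1 and 16.96 in p300, 16.3 and 16.1 in p300 D1399Y, 10.8 and 12.9 in VPRP sgHBB, and 16.9 and 19.0 in VPRP NonTarget. WT lay above and VPRP sgHBB below every other group, while the other 4 groups overlapped in part. The VPRP sgHBB level was 1.67-fold lower than WT (log2 fold change -0.74, SE 0.13, edgeR adjusted p = 8.72e-06). The other log2 differences from WT ran from -0.30 to -0.15 and did not pass the threshold.

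SMAD7 was measured at 11.1 and 11.0 CPM in WT, 11.8 and 11.4 in VPR, 7.34 and 9.36 in p300, 10.9 and 11.0 in p300 D1399Y, 5.61 and 5.47 in VPRP sgHBB, and 10.2 and 8.92 in VPRP NonTarget. VPRP sgHBB lay apart below all groups, and p300 overlapped VPRP NonTarget. SMAD7 was 1.99-fold lower than WT in VPRP sgHBB (log2 fold change -0.995, SE 0.17, edgeR adjusted p = 5.8e-06). In p300 it was 1.32-fold lower (-0.40, SE 0.16, edgeR adjusted p = 0.0395), a call lost with DESeq2 (adjusted p = 0.0696), with upper-quartile factors (edgeR adjusted p = 0.0739), without the count filter (0.0659), and without p300 replicate 1 (0.349), WT replicate 1 (0.111) or WT replicate 2 (0.104).

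BAMBI encodes a pseudoreceptor that lacks a kinase domain and blocks signalling at the membrane. Its level was 11.7 and 12.8 CPM in WT, 12.3 and 11.2 in VPR, 11.9 and 9.89 in p300, 10.9 and 11.1 in p300 D1399Y, 15.1 and 11.7 in VPRP sgHBB, and 21.5 and 19.3 in VPRP NonTarget. VPRP NonTarget lay above all other groups, 1.66-fold over WT (log2 fold change 0.73, SE 0.14, edgeR adjusted p = 3.87e-05). In the other 4 groups the log2 difference from WT ran from -0.17 to 0.12.

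SKIL encodes SnoN, a nuclear partner of SMADs that represses their targets until it is degraded. Its level was 16.4 and 14.0 CPM in WT, 23.7 and 17.5 in VPR, 20.7 and 18.0 in p300, 26.5 and 25.7 in p300 D1399Y, 16.5 and 20.1 in VPRP sgHBB, and 19.7 and 18.7 in VPRP NonTarget. The p300 D1399Y libraries lay above all others and the WT libraries below all others, and the 4 groups between them overlapped in turn. SKIL was 1.72-fold higher than WT in p300 D1399Y (log2 fold change 0.78, SE 0.14, edgeR adjusted p = 3.08e-05). The smaller differences were called in VPR (0.45, SE 0.14), p300 (0.35, SE 0.14) and VPRP NonTarget (0.34, SE 0.14), and not in VPRP sgHBB (0.27, SE 0.14, edgeR adjusted p = 0.0927). Each of those 3 calls was lost without WT replicate 2 (edgeR adjusted p = 0.197, 0.292 and 0.281). The VPR call was also lost without VPR replicate 1 (0.375) and the p300 call without p300 replicate 1 (0.282). With all libraries kept, the p300 call was lost with DESeq2 (adjusted p = 0.0961) and without the count filter (edgeR adjusted p = 0.0515), and the VPRP NonTarget call likewise (0.0666 and 0.0922). The latter was also lost without either of its libraries (0.193 and 0.0871).

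**Figure D1:**
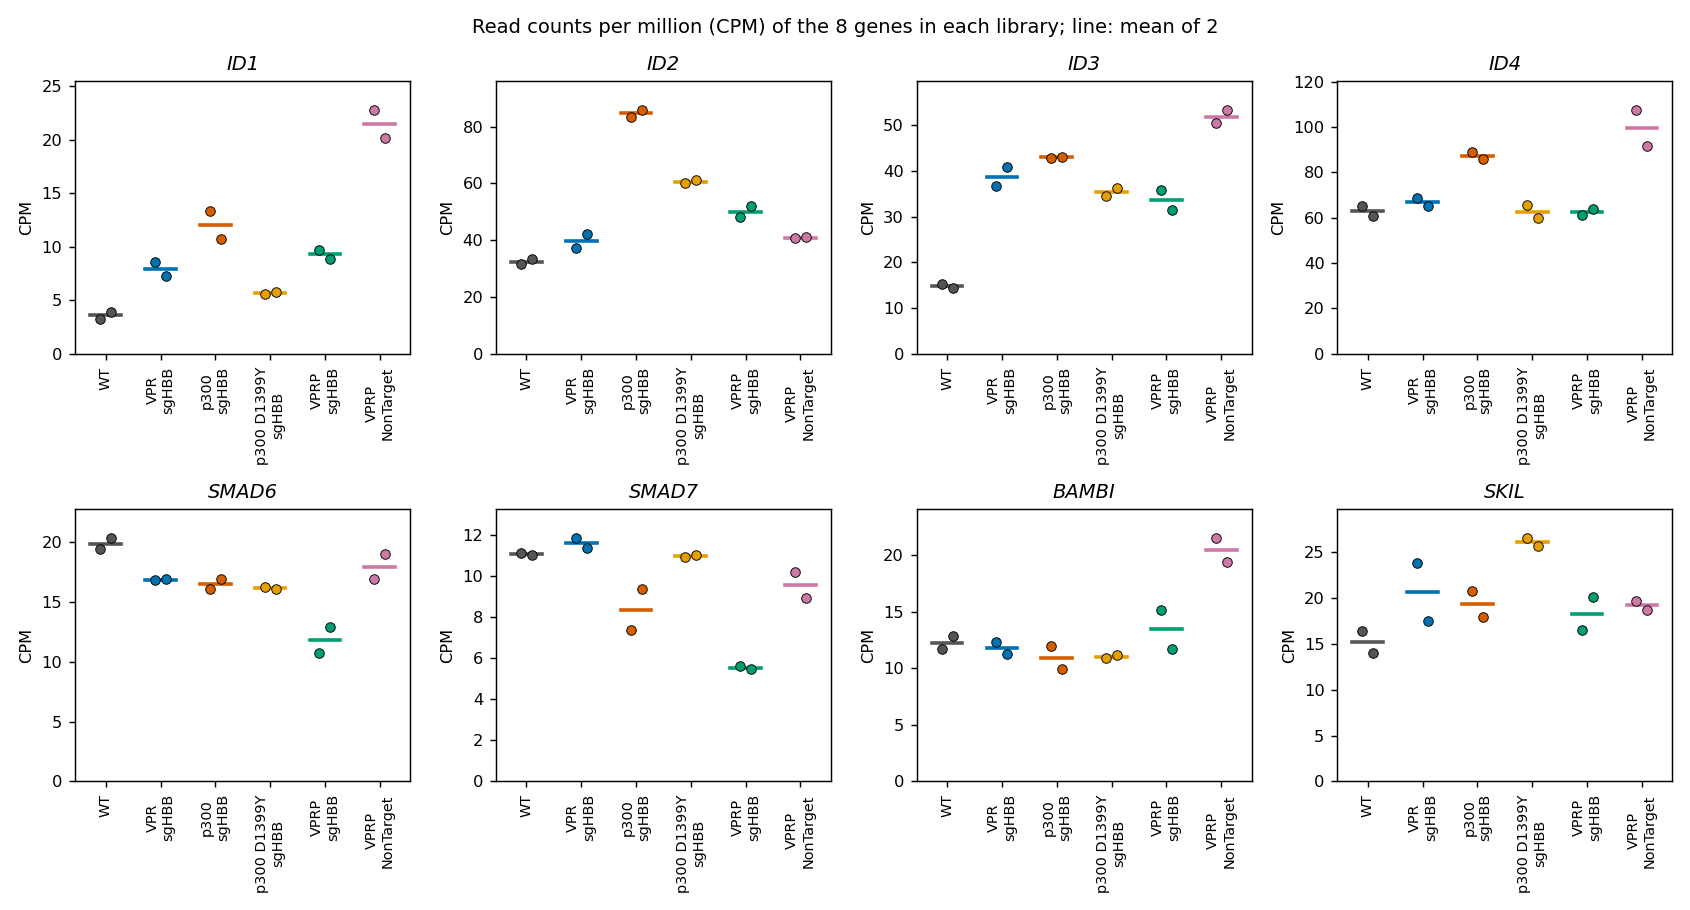
CPM (vertical axes, linear from 0) of the 8 genes in each of the 12 libraries by group; points are libraries and lines the mean of 2. ID1 and ID3 are lowest in WT and highest in VPRP NonTarget, ID2 is highest in p300, and SMAD6 and SMAD7 are lowest in VPRP sgHBB. Levels of different genes are not comparable, since gene lengths are not known here.

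The first comparisons set each fusion group against WT, and all 5 share the same WT libraries. The fusion groups also differ from WT in carrying dCas9, in the sort (GFP and BFP against BFP alone) and perhaps in the guide. The fused domains, dCas9, the sort and the guide cannot be told apart in these comparisons. With VPR, 4 of the 8 genes were higher and 0 lower, against 13.8% and 11.5% of all genes tested. The median log2 fold change of the 8 was 0.19, against 0.02 over all genes. With p300, 5 were higher and 1 lower (24.5% and 21.6% of all genes), with a median of 0.41 against 0.03. With p300 D1399Y, 4 were higher and 0 lower (15.7% and 14.5%), with a median of 0.32 against 0.0047. With VPRP sgHBB, 3 were higher and 2 lower (31.1% and 28%), with a median of 0.20 against 0.04. With VPRP NonTarget, 6 were higher and 0 lower (31.2% and 28.5%), with a median of 0.50 against 0.04. By gene, ID1, ID2 and ID3 were called higher in 5 of 5 comparisons and SKIL in 4. ID4 was called higher in 2 and BAMBI in 1, while SMAD7 was called lower in 2 and SMAD6 in 1. The lower calls were in p300 (SMAD7) and VPRP sgHBB (both). Where edgeR called 0 genes lower, the number lower at an unadjusted p under 0.05 was 0 with VPR, 1 with p300 D1399Y and 0 with VPRP NonTarget, and DESeq2 called 0 lower in each. DESeq2 also called 0 lower with p300, where it did not call SMAD7.

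**Figure D2:**
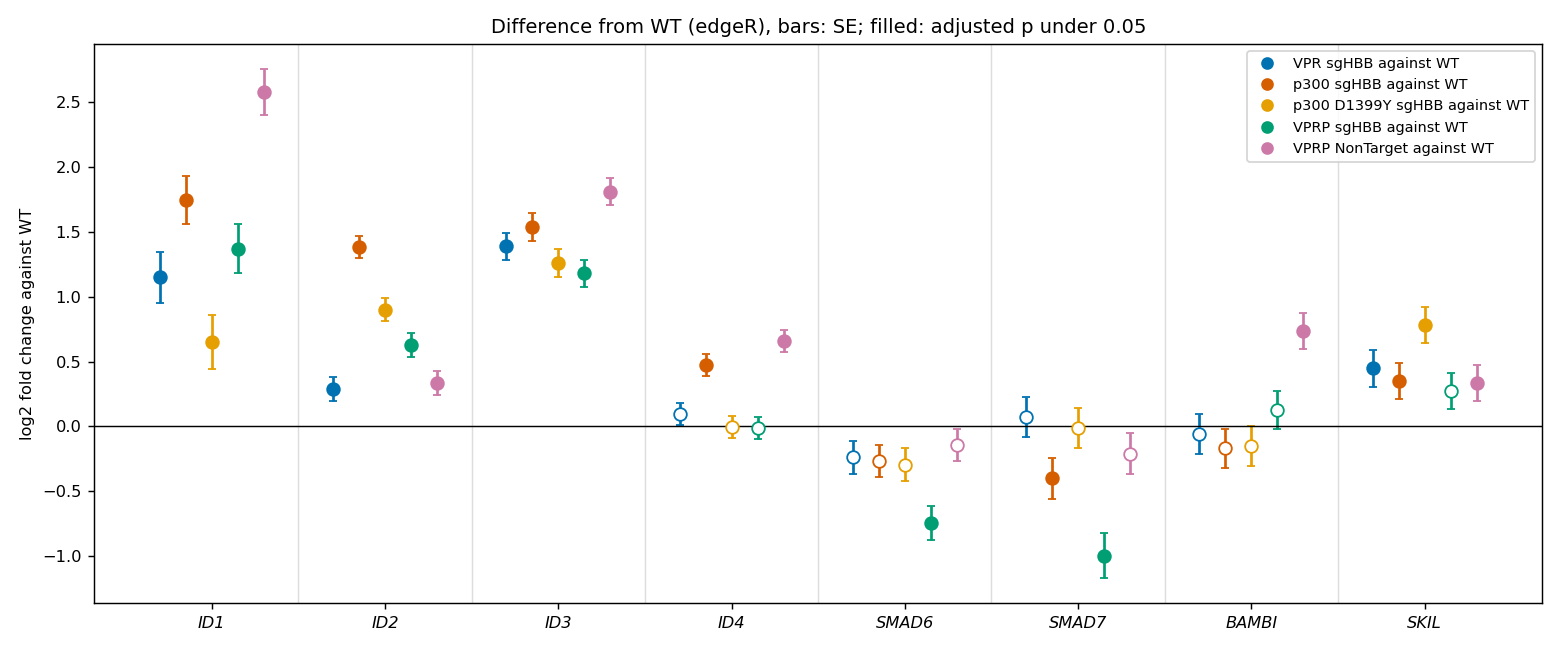
log2 fold change against WT (vertical axis) of each gene in the 5 fusion groups, with bars of 1 SE; filled points have an edgeR adjusted p under 0.05. ID1, ID2 and ID3 are above 0 in all 5 groups, from 0.29 (ID2, VPR) to 2.58 (ID1, VPRP NonTarget), and SMAD7 is lowest in VPRP sgHBB at -0.995.

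The active and the mutant p300 fusion were compared to see which genes follow the acetyltransferase. ID1 was 2.13-fold higher with active p300 (log2 difference 1.09, SE 0.17, edgeR adjusted p = 7.1e-06). ID2 was 1.40-fold higher (0.48, SE 0.08, edgeR adjusted p = 2.82e-05), ID4 1.39-fold (0.48, SE 0.08, edgeR adjusted p = 4.36e-05) and ID3 1.21-fold (0.28, SE 0.09, edgeR adjusted p = 0.0233). SKIL was 1.35-fold lower with active p300 (-0.43, SE 0.13, edgeR adjusted p = 0.0115). All 4 ID genes were thus higher and 1 feedback gene lower, against 15.4% and 15% of all genes. SMAD7 had a log2 difference of -0.39 (SE 0.16, edgeR adjusted p = 0.0616), which did not pass. The ID3 call was lost without any 1 of the 4 libraries compared (edgeR adjusted p from 0.0549 to 0.167), and the SKIL call without p300 replicate 2 (0.148) or p300 D1399Y replicate 1 (0.0725). EP300 reads were 1124 CPM with the active and 195 CPM with the mutant fusion, so that catalysis and amount of fusion cannot be told apart.

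Both guides were used with VPRP, which lets the guide to HBB be set against a guide with no target. ID1 was 2.31-fold lower with the HBB guide (log2 difference -1.21, SE 0.15, edgeR adjusted p = 1.18e-07), ID4 1.59-fold lower and ID3 1.55-fold lower. SMAD7 was 1.72-fold lower (-0.79, SE 0.17, edgeR adjusted p = 0.000564), BAMBI 1.53-fold and SMAD6 1.51-fold lower. ID2 alone was higher, 1.22-fold (0.29, SE 0.09, edgeR adjusted p = 0.00973), and SKIL did not pass the threshold (-0.06, SE 0.13). The counts were 1 higher and 6 lower of 8, against 14.9% and 14.4% of all genes, and the median of the 8 was -0.62 against -0.01. Without VPRP sgHBB replicate 2 the calls of ID2 (edgeR adjusted p = 0.108) and BAMBI (0.0575) were lost, and without VPRP NonTarget replicate 1 that of ID2 (0.0547). EP300 reads were 375 CPM with the HBB guide and 1172 CPM without. The groups also lay on opposite sides of the split described above (MAGEA10 at 0.213 and 32.0 CPM, TWIST2 at 3.52 and 0.0304 CPM). The guide, the amount of fusion and that split cannot be told apart.

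Joining p300 to VPR was examined against each part with the same guide. VPR and VPRP sgHBB lay on opposite sides of the split described above (MAGEA10 at 25.9 and 0.213 CPM, TWIST2 at 0 and 3.52 CPM). In that comparison the fusion and the split cannot be told apart. EP300 reads were 375 CPM in VPRP sgHBB and 1124 CPM in p300, so between these groups the kind and the amount of fusion cannot be told apart. Against VPR, VPRP sgHBB had 1 gene higher and 2 lower of 8 (24.7% and 25.1% of all genes). ID2 was 1.26-fold higher (log2 difference 0.34, SE 0.09, edgeR adjusted p = 0.00164), SMAD7 2.09-fold lower (-1.07, SE 0.17, edgeR adjusted p = 2.72e-06) and SMAD6 1.42-fold lower (-0.50, SE 0.13, edgeR adjusted p = 0.0018). Against p300, VPRP sgHBB had 0 genes higher and 5 lower (14.3% and 13.7%). ID2 was 1.69-fold lower (-0.76, SE 0.08, edgeR adjusted p = 9.94e-09), SMAD7 1.51-fold, ID4 1.40-fold, SMAD6 1.39-fold and ID3 1.28-fold lower. Without VPRP sgHBB replicate 2 the calls of ID3 (edgeR adjusted p = 0.0913) and SMAD7 (0.0573) were lost, without VPRP sgHBB replicate 1 that of SMAD6 (0.104), and without p300 replicate 2 those of SMAD6 (0.0567) and SMAD7 (0.186). VPRP NonTarget against VPR, which differ in guide and fusion, had 4 higher and 0 lower (27% and 28.2%): ID1 2.69-fold, BAMBI 1.73-fold, ID4 1.48-fold and ID3 1.34-fold. Where edgeR called 0 in a direction here (higher against p300, lower in VPRP NonTarget against VPR), 0 genes had an unadjusted p under 0.05 and DESeq2 called 0.

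WT, VPR, p300 and VPRP sgHBB form a 2 by 2 layout, in which the interaction asks whether the joined fusion differs from the product of its parts. The product of the VPR and p300 changes would give ID1 a log2 fold change of 2.89, and VPRP sgHBB had 1.37 (interaction -1.53, SE 0.25, edgeR adjusted p = 6.93e-05). For ID3 the product was 2.92 and the measured change 1.18 (interaction -1.75, SE 0.14, edgeR adjusted p = 9.58e-11). For ID2 they were 1.67 and 0.63 (interaction -1.04, SE 0.12, edgeR adjusted p = 3.79e-07), and for ID4 0.57 and -0.01 (interaction -0.58, SE 0.12, edgeR adjusted p = 0.00101). The 4 ID genes were thus lower in the joined fusion than the product of the parts. SMAD7 had an interaction of -0.67 (SE 0.23, edgeR adjusted p = 0.0489). In total 0 of the 8 genes had a higher and 5 a lower interaction, against 6.68% and 8.53% of all genes; 0 were higher at an unadjusted p under 0.05, and DESeq2 called 0 higher and 4 lower. SKIL (-0.52, SE 0.19, edgeR adjusted p = 0.0635), SMAD6 (-0.24) and BAMBI (0.35) did not pass. The SMAD7 call was lost with DESeq2 (adjusted p = 0.106), with RLE factors (0.0644), without the count filter (0.0884), with a stricter filter (0.0507), in a fit of the compared groups alone (0.0702) and with a replicate block (0.0575). It was also lost without any 1 library of WT, VPR or VPRP sgHBB or without p300 replicate 2 (edgeR adjusted p from 0.0791 to 0.25). The layout assumes equal amounts of each fusion, and EP300 reads were 1124 CPM in p300 and 375 CPM in VPRP sgHBB. It also takes WT as the group that lacks only the joined parts. WT carried no dCas9 fusion at all, was sorted for BFP alone, and its guide is not named. A shift shared by all fusion groups would enter the interaction with its sign reversed. Such a shift and an effect of joining the parts cannot be told apart here.

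**Figure D3:**
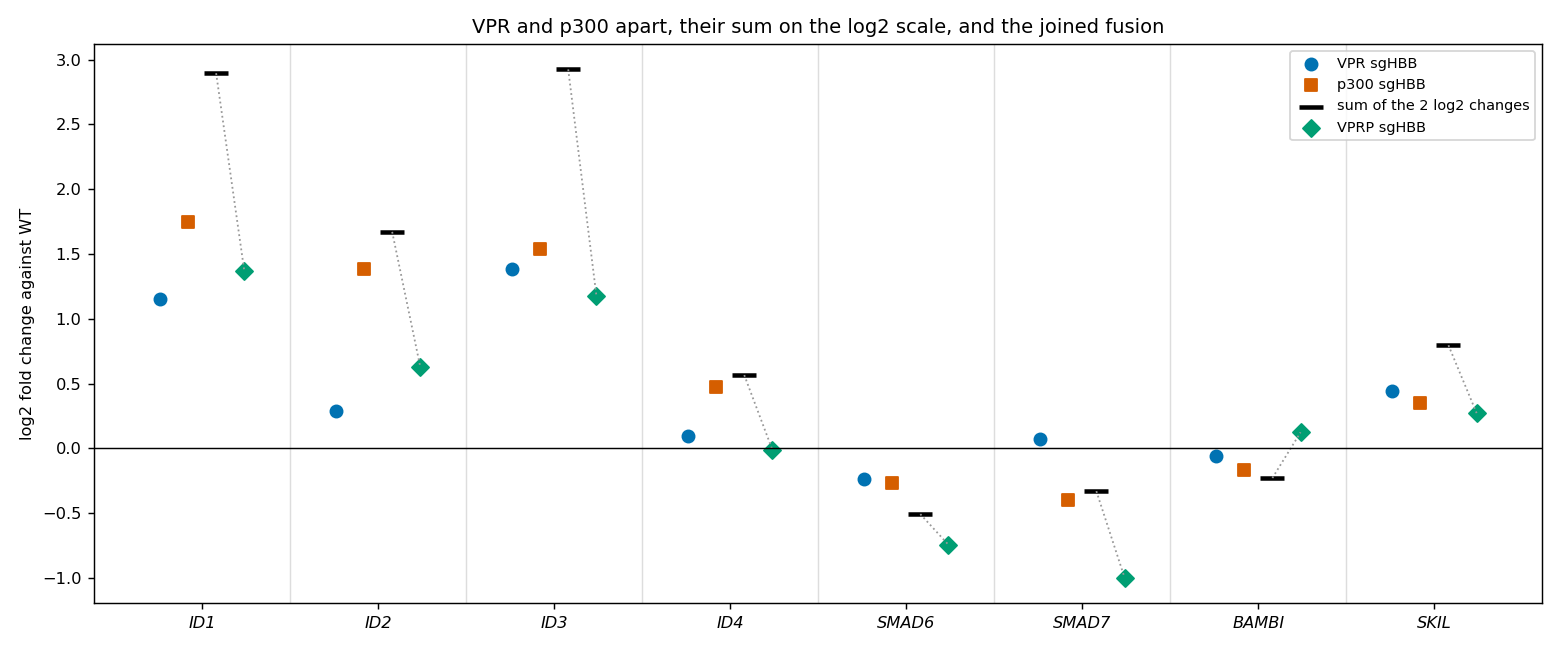
log2 fold change against WT (vertical axis) of each gene with VPR, with p300 and with VPRP sgHBB; black bars give the sum of the VPR and p300 values, and dotted lines join it to VPRP sgHBB. For ID1, ID2 and ID3 the joined fusion (1.37, 0.63 and 1.18) lies below the sum (2.89, 1.67 and 2.92).

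The rest of the pathway was read from lists of ligands, receptors, SMADs, inhibitors and targets, and no list was tested as a set. Among the receptor SMADs and SMAD4, 3 of 6 were lower and 1 higher than WT with p300, and 4 were lower and 1 higher with VPRP sgHBB. With VPRP NonTarget 3 were lower and 0 higher, and with VPR 1 was lower and 0 higher. In each of these groups 1 was higher at an unadjusted edgeR p under 0.05. With p300 D1399Y 1 was lower and 1 higher. The shares of all genes called higher and lower were 24.5% and 21.6% with p300, 31.1% and 28% with VPRP sgHBB, 31.2% and 28.5% with VPRP NonTarget, 13.8% and 11.5% with VPR, and 15.7% and 14.5% with p300 D1399Y. Lower calls in this small list made up 50% with p300 and with VPRP NonTarget and 66.7% with VPRP sgHBB. SMAD9, a BMP receptor SMAD, averaged 26.8 CPM in WT, 9.001 in VPRP sgHBB (log2 fold change -1.57, SE 0.14, edgeR adjusted p = 7.71e-12) and 10.1 in VPRP NonTarget (-1.40, SE 0.13). In the other groups SMAD9 averaged 15.9 CPM in p300, 23.7 in p300 D1399Y and 26.5 in VPR. SMAD3, which carries TGF-beta signals, fell by 1.03 on the log2 scale in VPRP NonTarget (57.3 CPM in WT and 28.1). It averaged 31.1 CPM in VPRP sgHBB, 37.1 in p300, 47.0 in p300 D1399Y and 47.9 in VPR. The list's median ran from -0.55 in VPRP sgHBB to -0.0032 in p300 D1399Y, against 0.04 and 0.0047 over all genes.

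Of the ligands, 22 of 30 matched genes passed the filter. The number higher and lower was 3 and 1 with VPR, 4 and 5 with p300, 3 and 4 with p300 D1399Y, 6 and 5 with VPRP sgHBB, and 8 and 4 with VPRP NonTarget. These were 13.6% and 4.55%, 18.2% and 22.7%, 13.6% and 18.2%, 27.3% and 22.7%, and 36.4% and 18.2% of the ligands, against 13.8% and 11.5%, 24.5% and 21.6%, 15.7% and 14.5%, 31.1% and 28%, and 31.2% and 28.5% of all genes. Most lie near or below the shares of all genes, so the counts do not set ligands apart. The list's medians ran from -0.10 (p300) to 0.31 (VPRP sgHBB). Over all genes the median lay between 0.0047 and 0.04 in these 5 comparisons, for this list and those that follow. BMP2, a strong inducer of ID genes, was at 0.460 CPM in WT (6 and 8 reads), 0.353 in VPR and 0.373 in VPRP NonTarget. It was at 2.42 CPM in p300, 3.51 in p300 D1399Y and 1.67 in VPRP sgHBB (log2 fold changes 2.38, 2.90 and 1.83), the same division of groups as for MAGEA10 and TWIST2. BMP8A rose in p300 (2.10, SE 0.51), VPRP sgHBB (2.95, SE 0.48) and VPRP NonTarget (3.23, SE 0.47), and GDF7 fell by 1.05, 1.43 and 1.69 on the log2 scale in these groups. GDF7 was also lower in VPR (-0.87, edgeR adjusted p = 0.00402) and p300 D1399Y (-0.71, edgeR adjusted p = 0.0129).

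Of 16 receptors and co-receptors tested, 1 was higher and 2 lower with VPR, 3 and 3 with p300, 4 and 1 with p300 D1399Y, 6 and 6 with VPRP sgHBB, and 7 and 5 with VPRP NonTarget. With VPR and p300 the higher calls were 6.25% and 18.8% of the list, against 13.8% and 24.5% of all genes, and the lower calls 12.5% and 18.8%, against 11.5% and 21.6%. In the other groups, in the order given, higher calls were 25%, 37.5% and 43.8% (15.7%, 31.1% and 31.2% of all genes) and lower calls 6.25%, 37.5% and 31.2% (14.5%, 28% and 28.5%). ACVRL1, a type I receptor for BMP9 that is typical of endothelium, rose from 0.498 CPM in WT to 5.18 in VPRP sgHBB (log2 fold change 3.37, SE 0.39, edgeR adjusted p = 4.5e-09) with 3.996 in p300, 3.56 in p300 D1399Y and 1.95 in VPRP NonTarget. ACVR1C, the type I receptor ALK7, rose in all 5 groups, from 2.35 CPM in WT to between 6.02 (VPR) and 14.5 (VPRP sgHBB). ENG, the co-receptor endoglin, rose in VPRP sgHBB (2.24, SE 0.53) and VPRP NonTarget (1.78, SE 0.54). The WT level of ENG rested on 5 and 10 reads, and that of ACVRL1 on 10 and 5. The list's medians lay between -0.15 (VPRP sgHBB) and 0.10 (p300 D1399Y).

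Among 12 tested extracellular antagonists, 2 were higher and 1 lower with VPR, 3 and 4 with p300, 3 and 3 with p300 D1399Y, 4 and 5 with VPRP sgHBB, and 3 and 2 with VPRP NonTarget. Higher calls were 16.7%, 25%, 25%, 33.3% and 25% of the list in that order, against 13.8%, 24.5%, 15.7%, 31.1% and 31.2% of all genes. Lower calls were 8.33%, 33.3%, 25%, 41.7% and 16.7%, against 11.5%, 21.6%, 14.5%, 28% and 28.5%, so several shares lie near those of all genes. CHRD (chordin, which binds BMPs outside the cell) rose in all 5 groups, from 2.14 CPM in WT to between 4.64 (VPRP NonTarget) and 10.2 (VPRP sgHBB). SOSTDC1, another secreted BMP antagonist, was called higher in the same 5 groups (log2 fold changes from 1.30 to 1.42), and NOG (noggin) fell by 1.05 on the log2 scale in p300 and by 1.40 in VPRP sgHBB. The medians ran from -0.31 (p300) to 0.13 (VPR).

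Of 14 other intracellular inhibitors, 2 were higher and 9 lower with VPRP sgHBB and 2 and 6 with p300; the counts were 1 and 4 with VPR, 1 and 2 with p300 D1399Y, and 3 and 5 with VPRP NonTarget. Lower calls were 64.3% of the list with VPRP sgHBB and 42.9% with p300, against 28% and 21.6% of all genes, and higher calls 14.3% in both, against 31.1% and 24.5%. With VPR, p300 D1399Y and VPRP NonTarget, lower calls were 28.6%, 14.3% and 35.7% (11.5%, 14.5% and 28.5% of all genes) and higher calls 7.14%, 7.14% and 21.4% (13.8%, 15.7% and 31.2%). ZEB2, a zinc finger repressor that binds receptor SMADs, averaged 26.0 CPM in WT, 8.47 in VPRP sgHBB (log2 fold change -1.60, SE 0.15, edgeR adjusted p = 4.52e-11) and 9.85 in VPRP NonTarget (-1.40, SE 0.15). It averaged 13.1 CPM in p300, 23.3 in VPR and 23.6 in p300 D1399Y. The medians ran from -0.30 (VPRP sgHBB) to -0.06 (VPR and p300 D1399Y).

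SMAD target genes moved in both directions: of 26 tested, 4 were higher and 6 lower with VPR, 12 and 9 with p300, 6 and 5 with p300 D1399Y, 10 and 10 with VPRP sgHBB, and 12 and 5 with VPRP NonTarget. Higher calls were 15.4%, 46.2%, 23.1%, 38.5% and 46.2% of the list in that order, against 13.8%, 24.5%, 15.7%, 31.1% and 31.2% of all genes. Lower calls were 23.1%, 34.6%, 19.2%, 38.5% and 19.2%, against 11.5%, 21.6%, 14.5%, 28% and 28.5%. Medians were 0.07, 0.32, -0.07, 0.06 and 0.45 in that order. SNAI1, an inducer of mesenchymal transition, was at 0.794 CPM in WT, 0.959 in VPR, 5.61 in p300, 1.34 in p300 D1399Y, 23.7 in VPRP sgHBB and 45.4 in VPRP NonTarget (log2 fold change against WT 5.83, SE 0.21, edgeR adjusted p = 2.93e-22). CCN2, a matrix protein, rose in p300 (2.52, SE 0.30), p300 D1399Y (1.05, SE 0.36), VPRP sgHBB (4.57, SE 0.25) and VPRP NonTarget (4.60, SE 0.24). SNAI2, a relative of SNAI1, instead fell in all 5 groups, from 37.2 CPM in WT to between 6.35 (p300) and 18.2 (VPRP NonTarget). JUNB, an AP-1 subunit, rose by 2.69 on the log2 scale (SE 0.14) in VPRP NonTarget, and CDKN2B, a cell cycle inhibitor induced by TGF-beta, by 2.67 (SE 0.15). JUNB averaged 7.83 CPM in WT, 50.6 in VPRP NonTarget and 13.7 to 25.6 in the other fusion groups. CDKN2B also rose in VPRP sgHBB (2.29, SE 0.15). It averaged 5.09 CPM in WT, 5.81 in VPR, 8.36 in p300 D1399Y and 16.4 in p300. ANKRD1 was at 6.56 CPM in p300 and 0.228 in WT, and at 0 counts in both VPR libraries, which allows up to 0.0987 CPM. With VPRP, 1 target was higher and 11 lower with the HBB guide than with the non-targeting guide, against 14.9% and 14.4% of all genes. With active against mutant p300, 9 were higher and 4 lower, against 15.4% and 15% of all genes; the targets' own shares were 3.85% and 42.3% in the first and 34.6% and 15.4% in the second comparison.

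The partners that ID proteins bind, TCF3, TCF4 and TCF12, were lower than WT in 3 of 3 genes with p300 and with VPRP sgHBB, in 2 with VPRP NonTarget, and in 1 each with VPR and p300 D1399Y; edgeR called 0 higher, and 0 were higher at an unadjusted p under 0.05. Of all genes, 21.6% were lower with p300, 28% with VPRP sgHBB, 28.5% with VPRP NonTarget, 11.5% with VPR and 14.5% with p300 D1399Y, and a list of 3 genes allows little reading against these. TCF3, the E protein E2A, averaged 190 CPM in WT, 118 in p300 (log2 fold change -0.69, SE 0.07, edgeR adjusted p = 2.91e-09), 122 in VPRP sgHBB and 137 in VPRP NonTarget. Of 7 SMAD co-activators, EP300 with its fusion reads included, 3 were higher and 3 lower with VPRP sgHBB and 3 and 4 with VPRP NonTarget. With VPR 1 was higher and 3 lower, with p300 2 and 3, and with p300 D1399Y 3 and 1. The shares of all genes higher and lower were 31.1% and 28%, 31.2% and 28.5%, 13.8% and 11.5%, 24.5% and 21.6%, and 15.7% and 14.5% in that order. NCOA3, a co-activator with p300-binding activity, was 2.02-fold higher in VPRP NonTarget than in WT (58.5 against 28.9 CPM). It averaged 50.4 CPM in VPRP sgHBB, 37.9 in p300, 37.4 in p300 D1399Y and 32.6 in VPR. The list's medians ran from -0.21 (VPRP NonTarget) to 0.37 (p300 D1399Y). TGIF1 and PMEPA1 stand in both the inhibitor and the target list.

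**Figure D4:**
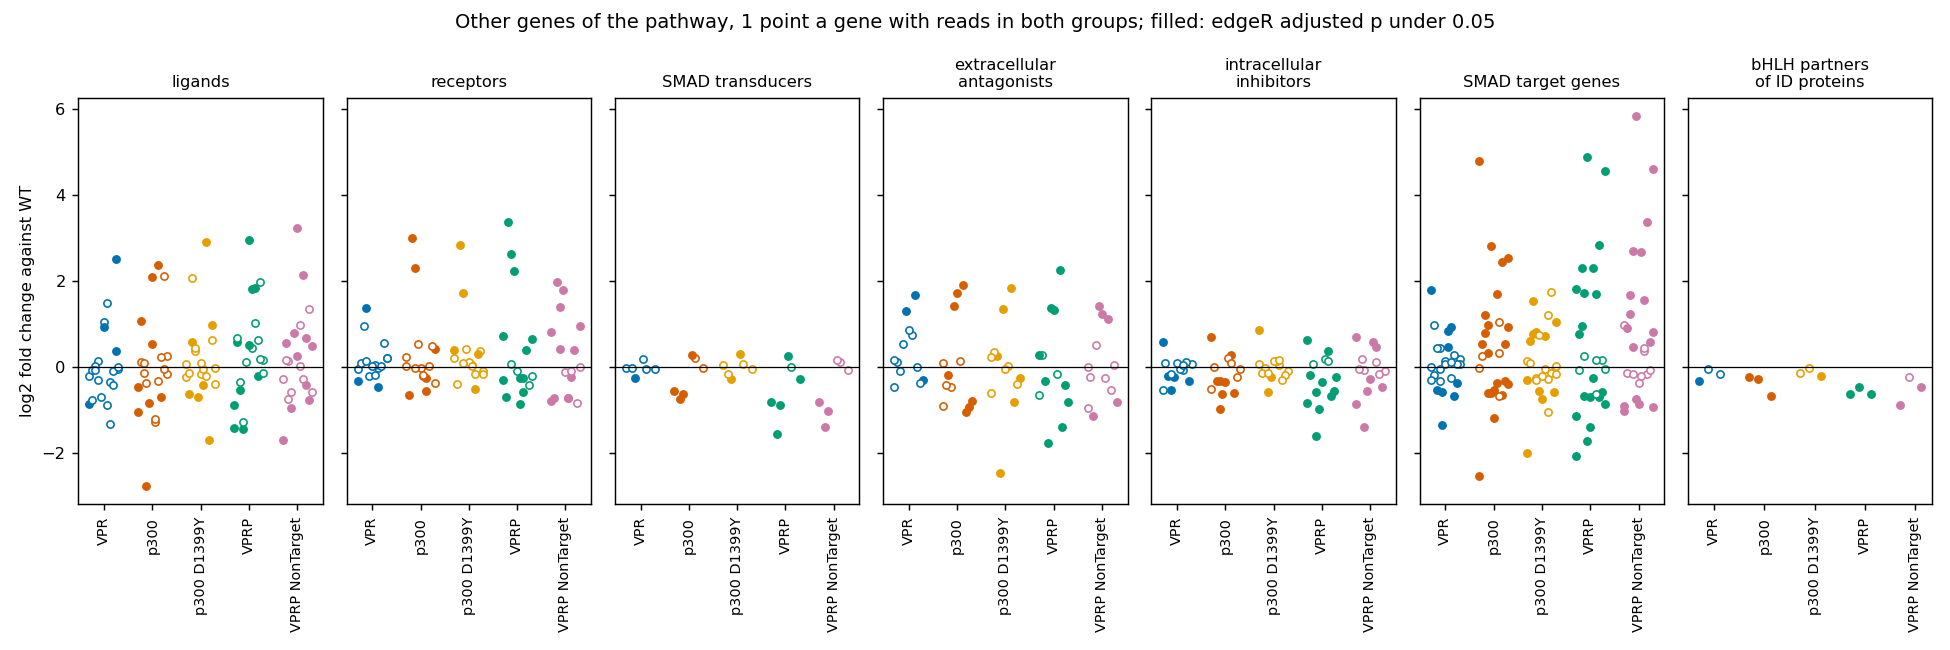
log2 fold change against WT (vertical axis) of the other pathway genes by list and group, 1 point a gene with reads in both groups; filled points have an edgeR adjusted p under 0.05. The 3 partners of ID proteins lie at or below 0, while SMAD targets spread in both directions, up to 5.83 (SNAI1, VPRP NonTarget).

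Across the 12 libraries, which share their groups, the log2 CPM of ID1 and ID3 had a Pearson correlation of 0.85, ID1 and ID4 of 0.83, and SMAD6 and SMAD7 of 0.79. ID1 and ID2 had 0.28, and ID2 and BAMBI -0.41, the lowest of the 28 pairs. Of 12811 genes compared, those most like ID1 were KLHL28 (0.96), NTMT1 (0.96) and WHAMM (0.96), and most like ID2 were AMD1 (0.97), PRKCQ-AS1 (0.96) and CRIP3 (0.95). For ID3 they were PSRC1 (0.98), H2BC12 (0.94) and ALDH1A1 (0.92), and for ID4 SLC7A5P1 (0.96), SMG1P5 (0.94) and MAB21L1 (0.93). SMAD6 was most like TAF4B (0.95), HES1 (0.93) and WASH7P (0.93), and SMAD7 most like DDX20 (0.96), BAG1 (0.95) and SPRY2 (0.94). For BAMBI they were SURF2, SOX8 and ZNF296 (each 0.95), and for SKIL CNOT6 (0.93), AGPS (0.85) and PPL (0.83). HES1, a target of Notch and BMP signalling, averaged 41.5 CPM in WT, 12.5 in VPRP sgHBB and 24.6 to 28.2 in the other fusion groups. These correlations describe 6 group levels in pairs of libraries.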

How the data were processed

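RNA was sequenced from 12 HEK293 libraries, 2 in each of 6 groups. The deposited table holds whole-number read counts per gene, not normalized; the submitters' processing notes name STAR 2.5, HTSeq 0.6.1, DESeq2 1.24.0, BWA, deepTools and hg19, with no role or order. The sources used here name no annotation release and no strand setting, so reads of overlapping genes may be shared. Symbols matched 45038 of 48162 IDs; of the listed pathway genes, 2 ligands did not match.

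Counts were analysed with edgeR 4.0.16 in R 4.3.3: filterByExpr (minimum count 10, minimum total 15), TMM factors, 1 mean per group over all 12 libraries, and quasi-likelihood tests of 11 comparisons with Benjamini-Hochberg adjustment over 16694 genes at 0.05. SE is the log2 fold change over the square root of F. CPM uses TMM factors; correlations use log2 CPM with a prior count of 2. The steps were tested on simulated data. Total counts of 14894558 to 17479523 set the precision; between replicates, the variance was 2.86 (VPRP NonTarget) to 13.6 (VPR) times the Poisson value, and an upper limit at 0 rests on 3 counts over a group and covers counting error only.

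The members, lists and motifs were chosen with earlier results of these data known. Named from each list are up to 4 genes a comparison with WT: called, at least 2-fold, mean log2 CPM of at least 0, libraries apart, largest change; HES1 follows the likeness rule (the 3 genes with the highest correlation, mean log2 CPM of at least 1), and MAGEA10, TWIST2 and GTCTAGAC were picked after values were seen. As alternatives, DESeq2 1.42.0, upper-quartile or RLE factors, no filter, a stricter filter (1 CPM in 2 libraries), compared groups only, a replicate block and leaving out each library were tried. Figures used matplotlib 3.10.9 in Python 3.11.15.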

Additional observations from a re-analysis of the deposited data

Results flagged for a closer look

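The VPRP sgHBB change differed from the product of the VPR and p300 changes for 5 of the 8 genes, by the test of the interaction. Of these, 0 were higher and 5 lower, against 6.68% and 8.53% of all genes. The interaction on the log2 scale was -1.53 for ID1, -1.04 for ID2, -1.75 for ID3, -0.58 for ID4 and -0.67 for SMAD7. Each is the VPRP sgHBB change less the sum of the VPR and p300 changes, all against the same WT libraries. The 2 by 2 layout assumes equal amounts of each fusion, and EP300 reads averaged 1124 CPM in p300 and 375 CPM in VPRP sgHBB. WT also lacked dCas9 and was sorted for BFP alone, with a guide that is not named. A shift shared by all fusion groups against WT would enter with its sign reversed, and cannot be told apart from an effect of joining the parts. The SMAD7 call (edgeR adjusted p = 0.0489) was lost with DESeq2 (0.106), RLE factors (0.0644), no count filter (0.0884), a stricter filter (0.0507), the compared groups alone (0.0702) and a replicate block (0.0575), so 4 genes, all ID genes, kept theirs under these alternatives. Groups held 2 libraries each, too few to look for single libraries that stand apart.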

How the results depend on the processing

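Of the 54 values called for the 8 genes over the 11 comparisons, 40 kept direction and call under all alternatives, and 14 were lost under at least 1, of which 5 under an alternative that kept all libraries of the compared groups. With upper-quartile factors 4 values that were not called changed sign: against WT with p300 D1399Y, ID4 (0.0096) and SMAD7 (0.0018), ID4 with VPRP sgHBB (0.0381), and BAMBI in p300 against p300 D1399Y (0.0233). The median of all genes moved by at most 0.0517 (log2) with other scaling factors.

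With each library left out in turn, the lone library of a group is assumed to vary like those of other groups. The genes called then ran from 2560 to 4216 for VPR against WT, 3199 to 3735 for p300 against p300 D1399Y, 3183 to 3750 for VPRP sgHBB against VPRP NonTarget, 3068 to 3535 for VPRP sgHBB against p300, and 1418 to 3303 for the interaction; members called ran from 2 to 3 for VPR against WT (2 without WT replicate 2) and 3 to 4 for p300 against p300 D1399Y (3 without p300 D1399Y replicate 1). Log2 differences that were not called and changed sign ran, against WT, from -0.1272 to 0.0085 (BAMBI, VPR), -0.0784 to 0.0605 (ID4, p300 D1399Y), -0.0634 to 0.0417 (ID4, VPRP sgHBB) and -0.0656 to 0.2949 (BAMBI, VPRP sgHBB). In p300 against p300 D1399Y they ran from -0.0103 to 0.0652 (SMAD6) and -0.1561 to 0.1142 (BAMBI), and for SKIL in VPRP sgHBB from -0.2177 to 0.0652 against VPRP NonTarget, -0.3724 to 0.0664 against VPR and -0.2326 to 0.0521 against p300. Against VPR, BAMBI in VPRP sgHBB ran from -0.0064 to 0.3622, and in VPRP NonTarget ID2 ran from -0.0437 to 0.1375 and SKIL from -0.3092 to 0.1297. The cause was not tested.

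Groups share replicate numbers, but samples with the same number did not deviate together: correlations over 15 pairs of groups ran from -0.0413 to 0.0661. With a replicate block, 4006 genes were called for VPR against WT (4220 without) and 2286 for the interaction (2539 without), and the members called were as many as without the block in 10 comparisons and 4 against 5 in the interaction, where SMAD7 was lost (edgeR adjusted p = 0.0575). Among the 8 genes, low counts limit ID1 most, at 48 and 61 reads in WT. Several named pathway genes rested on fewer reads in WT, among them ENG (5 and 10), ACVRL1 (10 and 5), SNAI1 (14 and 10) and SOSTDC1 (22 and 8).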
